A study of Mus musculus with 28 samples.

Results

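The genes described here carry the release and re-uptake of calcium in skeletal muscle. They are Cacna1s, Cacng1, Stac3, Ryr1, Jph1, Jph2, Casq1, Casq2, Atp2a1 and Atp2a2, and they were chosen by name for that function, as 10 of the 55536 genes counted in each library. All 10 were found by Ensembl identifier in all 28 libraries. Counts of RNA-seq reads per gene were compared over 7 groups of 4 libraries from 3 wild-type mouse cell lines: C2C12, a muscle line labelled as myotubes, MLg, a lung fibroblast line, and EO771, a breast cancer line. Each line was grown without a partner and EO771 was also kept in direct contact with C2C12 or MLg. Each shared culture gave separate libraries for its 2 lines, so that the groups are C2C12 alone, MLg alone, EO771 alone, C2C12 with EO771, EO771 with C2C12, MLg with EO771 and EO771 with MLg. The way the lines were separated, the time C2C12 had differentiated and the origin of the replicates were not given in the sources used here. A p-value therefore speaks only to the spread among libraries, and that spread may be technical. Replicates carry an R number and a running number from the labels, such as R3-1, whose meaning is not given.

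Contraction of a muscle fibre starts when the membrane voltage changes in a tubule that runs into the cell. Cacna1s senses that change, and Ryr1, facing it across a narrow gap, lets calcium out of the sarcoplasmic reticulum. Junctophilins hold the membranes together at this junction, calsequestrins bind the stored calcium inside the reticulum, and the pumps encoded by Atp2a1 and Atp2a2 carry it back. Of these genes Atp2a2 is also known as the general pump of the endoplasmic reticulum in cells that are not muscle.

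Total counts ran from 27.6 to 96.5 M per library, and levels are given as CPM, counts per M total counts of a library. Where a gene had no counts, the limit was set at 3 counts, which over the 4 libraries of EO771 alone is 0.0209 CPM (counting error only). The labelled cell types were set against marker lists. The summed level of 28 myotube markers was 524 to 6836 CPM in C2C12 alone, 24.3 to 39.0 CPM in MLg alone and 18.0 to 21.2 CPM in EO771 alone. The sum of 12 fibroblast markers was 23773 to 30307 CPM in MLg alone and 25245 to 30014 CPM in C2C12 alone. It was 92.6 to 125 CPM in EO771 alone, and it did not separate MLg from C2C12. In EO771 alone 3 of 12 epithelial markers reached 1 CPM in a library, and Cldn3, Cldn4 and Krt19 were at 0 in all 4 libraries. Only even counts were found in 5 co-cultured libraries, namely R3-1, R5-1 and R6-1 of EO771 with C2C12 and R5-1 and R6-1 of MLg with EO771.

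Promoter sequences were available for 6 of the 10 genes: Casq1, Casq2, Atp2a1, Ryr1, Cacna1s and Jph2, the last with 2 start sites. The sequences of Cacna1s, Ryr1, Casq1, Casq2 and Atp2a1 are shown because the ratio of these 5 genes to the myotube markers varied least, as described below. Each is the 250 bases before the RefSeq start site on GRCm38.p6, written 5′ to 3′ on the strand of the gene. Capitals mark the letters CAGCTG, a form of the E-box CANNTG that myogenic factors of the MyoD family are known to bind, or, in Casq2, a match to the MEF2 consensus.
Cacna1s (chr1:136052561-136052810, plus strand): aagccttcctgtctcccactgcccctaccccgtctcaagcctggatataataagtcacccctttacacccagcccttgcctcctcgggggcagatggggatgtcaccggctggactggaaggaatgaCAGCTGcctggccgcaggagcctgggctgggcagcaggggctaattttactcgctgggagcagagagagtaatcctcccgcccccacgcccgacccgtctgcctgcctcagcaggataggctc
Ryr1 (chr7:29125152-29125401, minus strand): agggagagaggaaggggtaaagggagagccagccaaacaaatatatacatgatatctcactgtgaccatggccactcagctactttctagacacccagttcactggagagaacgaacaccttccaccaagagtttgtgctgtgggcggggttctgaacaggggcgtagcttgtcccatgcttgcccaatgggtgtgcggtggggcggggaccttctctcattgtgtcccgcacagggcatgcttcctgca
Casq1 (chr1:172219896-172220145, minus strand): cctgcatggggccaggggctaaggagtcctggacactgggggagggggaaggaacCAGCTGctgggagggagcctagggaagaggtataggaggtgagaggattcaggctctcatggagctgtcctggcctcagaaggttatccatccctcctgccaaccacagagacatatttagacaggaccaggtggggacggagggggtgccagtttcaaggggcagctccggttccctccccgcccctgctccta
Casq2 (chr3:102086165-102086414, plus strand): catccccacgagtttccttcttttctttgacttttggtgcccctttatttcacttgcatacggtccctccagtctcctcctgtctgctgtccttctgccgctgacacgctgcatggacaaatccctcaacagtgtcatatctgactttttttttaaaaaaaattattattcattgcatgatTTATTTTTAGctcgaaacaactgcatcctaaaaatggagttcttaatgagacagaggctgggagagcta
Atp2a1 (chr7:126463074-126463323, minus strand): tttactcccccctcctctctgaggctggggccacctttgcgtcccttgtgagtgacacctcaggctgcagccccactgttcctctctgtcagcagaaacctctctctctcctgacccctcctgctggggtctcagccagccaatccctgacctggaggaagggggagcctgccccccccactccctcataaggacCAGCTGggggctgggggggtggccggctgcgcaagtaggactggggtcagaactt
Both strands were searched. CAGCTG was in 4 of the 6 genes, at -195 from the start in Casq1, -123 in Cacna1s, -55 in Atp2a1 and, depending on the start site, -29 or -9 in Jph2, and in 13.0% of all 32851 promoter windows of that length. CANNTG, which includes CAGCTG, was in 5 of the 6 genes and in 66.2% of all windows. The MEF2 consensus was found in Casq2 alone, at -69, and in 2.92% of all windows. The Ryr1 window held none of the 3. These matches describe letters and were not tested as binding sites.

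The 3 C2C12 libraries with R number 3, of which 2 are C2C12 alone (R3-1 and R3-2) and 1 is C2C12 with EO771 (R3-1), stood apart from the other 5. Every one of the 10 calcium genes was lower in all 3 of them than in all 5 others, a pattern seen in 13% of the 12883 genes with a mean of at least 1 CPM. The R number was on both sides of the comparison but in unequal numbers, 2 of 4 against 1 of 4, so the co-culture values of the 10 genes are also given without these libraries.

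**Figure D1:**
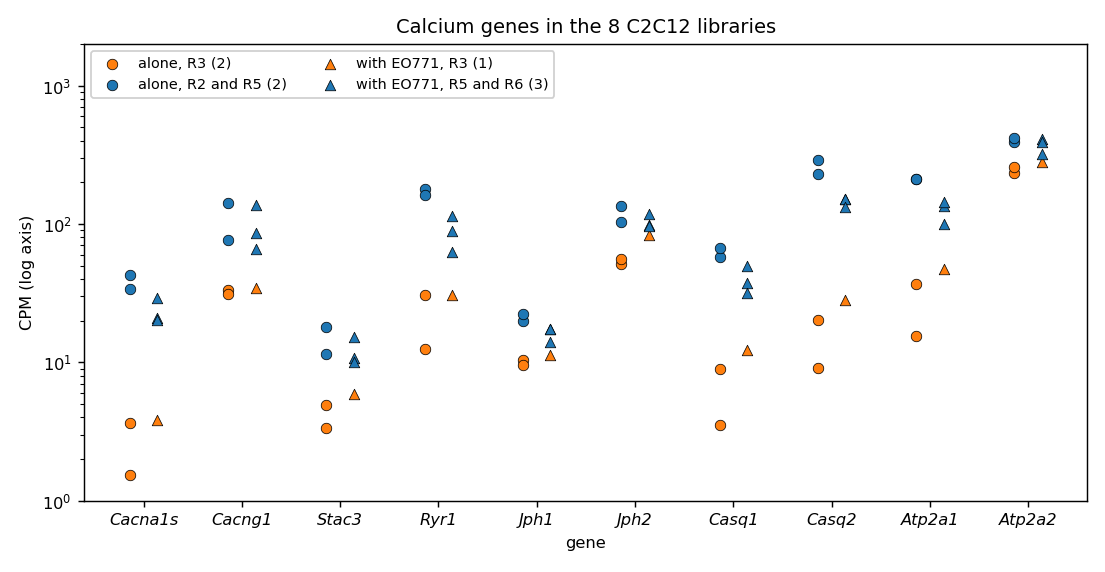
Level of the 10 genes in the 8 C2C12 libraries, in CPM on a log axis, with 1 point per library. Circles are C2C12 alone and triangles C2C12 with EO771; orange marks the R3 libraries and blue the others. For each gene the orange points lie below the blue points.

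The voltage sensor genes were expressed in every C2C12 library. Cacna1s, the voltage-sensing pore subunit of the calcium channel, was at 33.8, 1.53, 3.67 and 42.7 CPM in C2C12 alone R2-1, R3-1, R3-2 and R5-1, an order kept below. In C2C12 with EO771 it was at 3.84, 20.8, 29.1 and 20.1 CPM in R3-1, R5-1, R5-2 and R6-1. The R3 libraries were low in both groups, and the 2 groups overlapped. Cacng1, the gamma subunit of the same channel, was at 76.2, 33.4, 31.4 and 141 CPM alone. With EO771 it was at 34.5, 137, 86.6 and 66.0 CPM in the same library order, again with overlap and with the R3 libraries lowest. Stac3, the adaptor that muscle needs for the coupling of Cacna1s to Ryr1, was at 11.5, 3.37, 4.96 and 18.2 CPM alone and at 5.91, 15.2, 10.8 and 10.1 CPM with EO771.

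The release channel Ryr1 was at 179, 12.6, 30.7 and 162 CPM in C2C12 alone and at 30.8, 89.2, 115 and 62.7 CPM with EO771. The libraries of C2C12 with EO771 other than R3-1 lay between the R3 and the other libraries of C2C12 alone. Among the junctophilins, Jph1, the skeletal muscle form, was at 19.9, 10.5, 9.51 and 22.6 CPM alone and at 11.4, 14.1, 17.3 and 17.5 CPM with EO771. Jph2, found in both heart and skeletal muscle, was at 104, 51.7, 55.8 and 135 CPM alone and at 83.5, 98.8, 118 and 96.3 CPM with EO771. Both junctophilins spanned a narrow range: the highest library of C2C12 alone was 2.37 times the lowest for Jph1 and 2.60 times for Jph2, against 14.3 times for Ryr1.

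The calsequestrins varied widely between libraries. Casq1, the calsequestrin of fast fibres, was at 57.5, 3.53, 8.99 and 67.2 CPM in C2C12 alone and at 12.4, 49.6, 37.4 and 32.0 CPM with EO771. Casq2, the form of heart, slow fibres and developing muscle, was at 229, 9.04, 20.1 and 292 CPM alone and at 28.2, 152, 151 and 132 CPM with EO771. The highest of the 4 libraries of C2C12 alone was 32.3 times the lowest for Casq2, the widest spread of the 10 genes, 27.9 times for Cacna1s and 19.0 times for Casq1. The pumps differed from each other in this respect. Atp2a1, the pump of fast fibres, was at 210, 15.6, 36.9 and 213 CPM alone and at 47.6, 136, 144 and 99.5 CPM with EO771. Atp2a2 was at 390, 235, 258 and 419 CPM alone and at 279, 323, 409 and 392 CPM with EO771, a range of 1.78 times alone. Atp2a1 overlaps Rabep2 on the opposite strand over 763 exon bases. Rabep2 was at 30.5 CPM over the C2C12 libraries and 18.3 CPM in EO771 alone, where Atp2a1 was at 0.307 CPM; whether reads were counted by strand was not given in the sources used here.

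Levels of different genes were compared per kilobase of exon. In C2C12 alone Cacng1 was at 56.5 ± 41.2, Atp2a2 at 53.5 ± 15.2 and Casq2 at 50.3 ± 52.8 CPM per kb (SD, n = 4), and these 3 did not differ beyond their spread. Atp2a1 followed at 34.2 ± 30.9, Jph2 at 20.3 ± 9.38 and Casq1 at 17.6 ± 16.8 CPM per kb. Ryr1, a very long transcript, was at 4.41 ± 3.97, Stac3 at 3.73 ± 2.66, Jph1 at 3.12 ± 1.32 and Cacna1s at 3.12 ± 3.20 CPM per kb. Each neighbouring pair in this order overlapped within 1 SD. These SDs hold the R3 split that the genes share, so the overlap does not speak to the order within a library. Casq1 was above Ryr1 in each library, at 29.5, 1.81, 4.61 and 34.4 against 8.22, 0.575, 1.41 and 7.42 CPM per kb. Casq2 was above Atp2a2 in R2-1 and R5-1 and below it in R3-1 and R3-2.

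The R3 difference was set against all genes. In C2C12 alone the mean of the other 2 libraries was 17.9 times that of the 2 R3 libraries for Casq2, 14.7 times for Cacna1s, 9.96 times for Casq1, 8.06 times for Atp2a1 and 7.89 times for Ryr1. It was 3.56 times for Stac3, 3.35 times for Cacng1, 2.22 times for Jph2, 2.13 times for Jph1 and 1.64 times for Atp2a2. The median over the 10 genes was 5.24-fold, beside 12.1-fold over 27 myotube markers and 1.05-fold over the 12883 genes (on CPM + 0.1). In C2C12 with EO771, where R3 is a single library, the corresponding medians were 2.72-fold, 3.94-fold and 1.05-fold. The groups of libraries were set apart by their values here, so these ratios are a description with no test. The median of 11 myogenic regulators was 3.62-fold alone and 1.33-fold with EO771, that of 11 fibroblast markers 0.763-fold and 0.674-fold, and that of 8 cycling markers 1.10-fold and 2.64-fold. Fewer myotubes and less of these RNAs per myotube cannot be told apart in bulk libraries.

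Other genes of the coupling and calcium-handling machinery followed this pattern in part. Of 46 such genes with an identifier in the files, 34 had a mean of at least 1 CPM. Of these 11, or 32.4%, were lower in every R3 library than in every other C2C12 library, beside the 13% of all genes. Of 9 triad and reticulum proteins 6 showed it. Among these Hrc, a calcium-binding protein of the reticulum, averaged 6.53 CPM in the R3 libraries of C2C12 alone and 88.7 CPM in the other 2. Trdn, which links Ryr1 to calsequestrin, averaged 6.34 and 33.1 CPM, and Srl, a reticulum glycoprotein, 13.8 and 114 CPM. Of 5 tubule membrane genes 3 showed it, including Cav3, the muscle caveolin, at 0.358 and 10.6 CPM. None of the 7 release channel and binding protein genes, 5 store-refilling genes and 3 export genes did. Ryr3, a second release channel of immature muscle, averaged 9.34 and 14.4 CPM, and Stim1, the calcium sensor of the reticulum, 34.4 and 34.7 CPM. The triad list and the 10 genes were both written from muscle biology with earlier results of these data known.

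The levels of the 10 genes across the 8 C2C12 libraries were then set against the sum of the 28 myotube markers, which include myosin, actin and troponin genes. For 5 genes the ratio to that sum stayed within a factor of 2.59 while the sum itself went from 524 to 6836 CPM. Per 1000 CPM of markers, Atp2a1 was at 35.5 ± 5.30 CPM (SD, n = 8), its highest library 1.53 times its lowest. Ryr1 was at 26.6 ± 4.96 CPM with a range of 1.62 times, and Casq1 at 9.99 ± 1.58 CPM with 1.76 times. Casq2 was at 33.4 ± 10.4 CPM with 2.49 times, and Cacna1s at 5.23 ± 1.65 CPM with 2.59 times. For the other 5 genes the ratio varied more: 3.06 times for Stac3, 4.58 times for Cacng1, 5.19 times for Jph2, 6.10 times for Jph1 and 7.33 times for Atp2a2. Casq1, Atp2a1 and Ryr1 therefore went with the contractile genes nearly in proportion. For Casq2 and Cacna1s the ratio was lower in every R3 library than in every other. Casq2 was at 17.3 to 27.0 CPM per 1000 CPM of markers there, against 35.5 to 42.9 CPM. Cacna1s was at 2.93 to 3.79 CPM, against 4.86 to 7.59 CPM. The other 5 genes kept more of their level in libraries with few contractile transcripts.

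**Figure D2:**
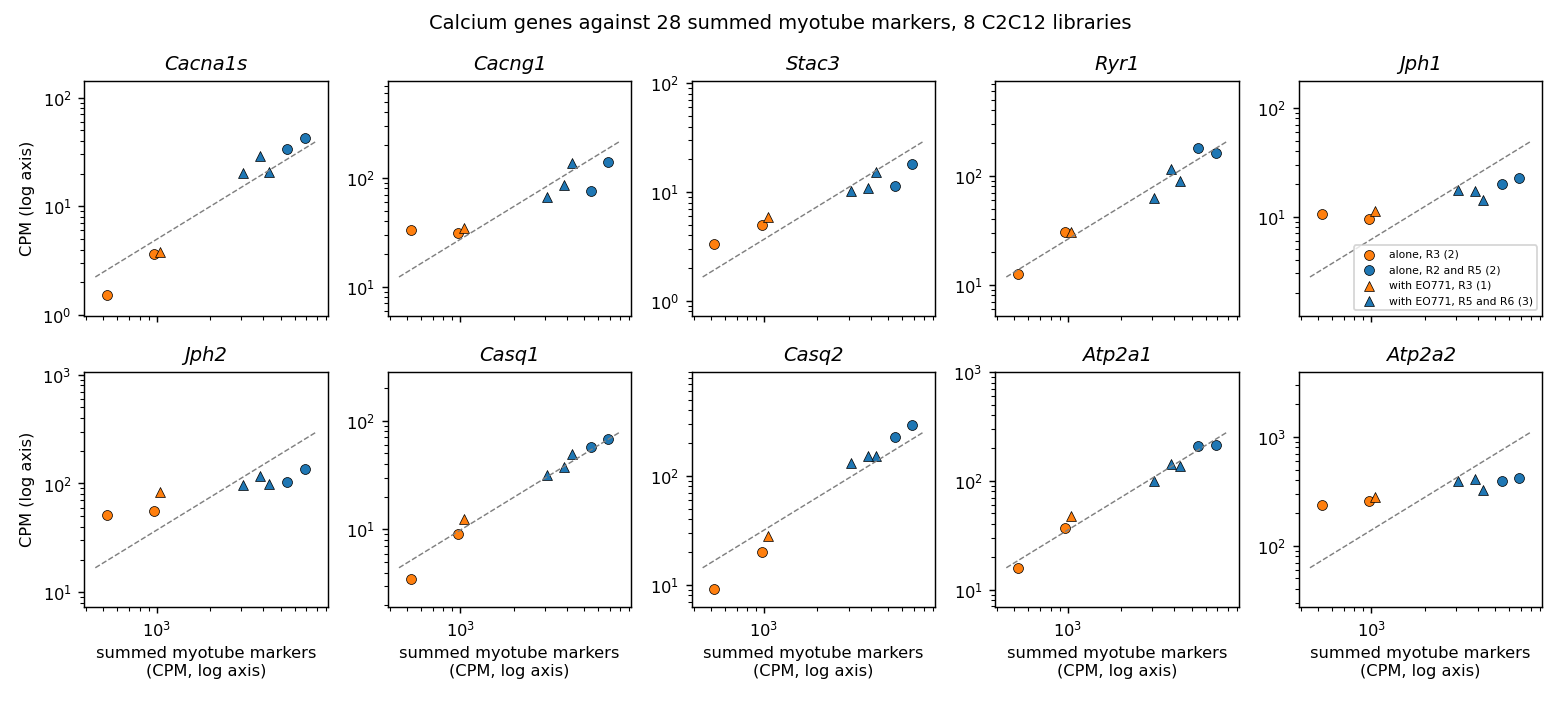
Level of each of the 10 genes (CPM, log axis) against the summed level of 28 myotube markers (CPM, log axis) in the 8 C2C12 libraries, with the symbols of the plot by library. The dashed line is a constant ratio to the markers: Casq1, Atp2a1 and Ryr1 lie along it, and Atp2a2, Jph1 and Jph2 cross it at a lower slope.

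Across the 8 C2C12 libraries the 10 genes were correlated with each other, with Pearson's r of log2(CPM + 1) from 0.783 to 0.994 over the 45 pairs (median 0.932). Among 10479 genes with a mean of at least 5 CPM, those most like the mean profile of the 10 were Acta1 (r = 0.999), Tnni1, Chrnd, Hfe2, Hrc, Pdlim3, Mylpf and Nrap (r = 0.996). Acta1, Tnni1 and Mylpf encode contractile proteins and Chrnd a subunit of the acetylcholine receptor. The median r over all ranked genes was 0.18, and 3.34% of them were above 0.9. These correlations describe 8 libraries that share the R3 split, so they carry no p-value.

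The first comparison asked whether contact with cancer cells changed these genes in muscle cells. None of the 10 calcium genes changed in C2C12 with EO771 against C2C12 alone, where edgeR's quasi-likelihood test with Benjamini-Hochberg adjustment called 2.68% of 16625 genes (2.58% higher and 0.0962% lower). None was called by DESeq2, and none had an unadjusted p under 0.05. The log2 fold changes ran from -0.40 ± 0.72 (SE) for Ryr1 to 0.17 ± 0.51 for Cacng1, with a median of -0.09 beside one of -0.0024 over all genes, and 6 of 10 were below 0. Adjusted p values by edgeR ran from 0.909 for Jph2 to 0.987 for Casq1. The precision differed among the genes: the SE was 0.19 for Atp2a2, 0.27 for both junctophilins and 0.93 for Casq2. For Casq2 an interval of 2 SE thus holds changes of several fold in either direction. Of 27 myotube markers tested none was called either, with 0 at an unadjusted p under 0.05 by edgeR, and their median log2 fold change was -0.24.

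The R3 libraries and the other libraries were then taken apart; the latter mix R2, R5 and R6, of which only R5 is on both sides. In the R3 libraries the co-cultured library was above both R3 libraries of C2C12 alone for all 10 genes, as it was for 45% of the 12883 genes. The margin ran from 28.2 CPM against 9.04 and 20.1 CPM for Casq2 to about equal values for Ryr1, at 30.8 CPM against 12.6 and 30.7 CPM, and Cacna1s, at 3.84 CPM against 1.53 and 3.67 CPM. In the other libraries all 3 co-cultured ones were below both libraries of C2C12 alone for 6 genes (Casq1, Casq2, Atp2a1, Ryr1, Cacna1s and Jph1), as for 10.5% of the 12883 genes. For Casq2 these were 132, 151 and 152 CPM against 229 and 292 CPM. Fitted with 4 means, an alternative added after the values were seen, the effect of EO771 in the other libraries ran from -0.97 ± 0.34 (SE) for Ryr1 to -0.13 ± 0.15 for Atp2a2. In the R3 libraries it ran from 0.04 ± 0.42 for Cacng1 to 0.95 ± 0.44 for Casq1. By edgeR none of the 10 was called in either. Over all genes 2.71% were called in the other libraries (2.42% higher and 0.289% lower) and 1.02% in the R3 libraries (1% higher and 0.012% lower). An unadjusted p under 0.05 was found for 5 of the 10 in the other libraries, beside 11.9% of all genes, and for 2 in the R3 libraries, beside 7.54%. The difference between these 2 effects was called for 0 of 16625 genes by edgeR, and had unadjusted p values of 0.00293 for Casq2, 0.00998 for Atp2a1 and 0.0109 for Jph2 (adjusted p 0.981 for each). An unadjusted p under 0.05 was found for 6 of the 10, beside 4.55% of all genes. With 1 co-cultured R3 library and a split seen in the data, these values describe the libraries only. DESeq2 was not run on these 3 fits.

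**Figure D3:**
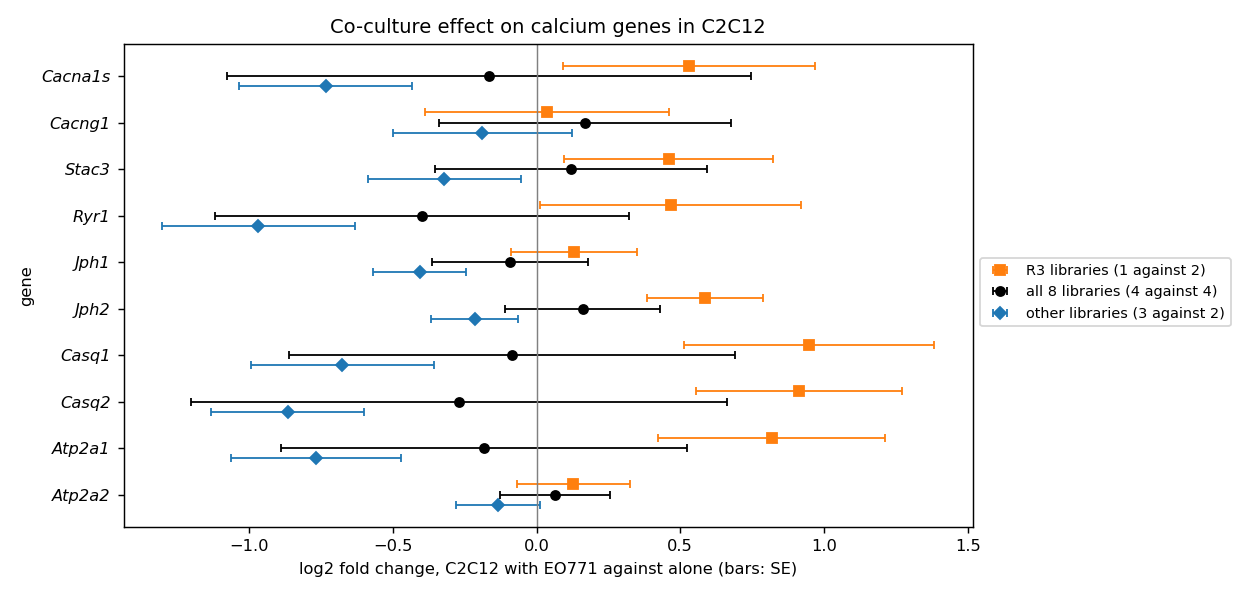
Log2 fold change of the 10 genes in C2C12 with EO771 against C2C12 alone, with SE bars, fitted over all 8 libraries (black circles), in the R3 libraries (orange squares) and in the others (blue diamonds). Orange values are above 0 and blue values below 0 for each gene, while the black values lie within 1 SE of 0.

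Without the 3 R3 libraries, 1 of the 10 genes was called lower by edgeR, beside 2.04% of 17241 genes called (0.209% lower and 1.83% higher). This was Casq2, at -0.87 ± 0.17 (SE) on the log2 scale (edgeR, adjusted p = 0.0392), against -0.27 ± 0.93 with the R3 libraries included. Ryr1 was at -0.97 ± 0.24 (adjusted p = 0.105), Atp2a1 at -0.77 ± 0.19 (adjusted p = 0.101), Cacna1s at -0.74 ± 0.21 (adjusted p = 0.158) and Casq1 at -0.68 ± 0.21 (adjusted p = 0.204). The R3 libraries were set apart for their low levels of these same genes, and more of them are C2C12 alone than C2C12 with EO771. Leaving them out thus moves the values of the 10 genes downwards, and the adjusted p values describe the libraries only. These comparisons rest on 3 libraries against 2, and only R5 is on both sides. R5-1 and R5-2 of C2C12 with EO771 share an R number, and the fit took all libraries as independent. The sum of myotube markers moved the same way, from 5467 and 6836 CPM in C2C12 alone R2-1 and R5-1 to 3086, 3838 and 4288 CPM in the 3 co-cultured libraries. In the same libraries the median level of 8 cycling markers was 3.01 times as high with EO771 as alone, with 7 of 8 above 2-fold, beside 3.29% of 12883 genes. The sum of these markers averaged 1652 CPM in EO771 with C2C12 and 91.3 CPM in C2C12 alone. The part of myotube content and of cycling cells in the Casq2 value was not tested, nor was that of EO771 RNA in the cycling markers.

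Of the other coupling genes 40 were tested in C2C12, and 2 were higher with EO771. Atp2a3, a calcium pump of cells other than muscle, rose from 1.37 ± 0.503 to 3.26 ± 0.487 CPM (SD, n = 4 each; log2 fold change 1.21 ± 0.26 SE, adjusted p = 0.0428). It was at 41.7 ± 3.39 CPM in EO771 alone. Cacna1c, the calcium channel pore of heart and smooth muscle, was called as well (adjusted p = 0.0169) at a level below 1 CPM in C2C12, was at 17.4 CPM in EO771 alone, and is named after its values were seen. Transcripts found in EO771 alone and at most at 0.2 CPM in any library of C2C12 alone (54 genes) were present in the co-cultured C2C12 libraries at 3.23% to 4.95% of their level in EO771 with C2C12 (median over genes). Their part in the rise of Atp2a3 and Cacna1c was not tested. The 5 of these genes with the highest level in C2C12, Calr, Bin1, Atp2b1, Itpr3 and Atp2b4, were not called: their log2 fold changes ran from -0.47 ± 0.33 for Atp2b4 to 0.19 ± 0.35 for Bin1. Calr, the calcium-binding chaperone of the reticulum, was at 1229 ± 174 CPM alone and 1392 ± 184 CPM with EO771.

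The 3 lines grown alone were compared next. Against MLg, 9 of the 10 genes were higher in C2C12, beside 61.9% of 18755 genes called (31% higher and 30.9% lower). Against EO771, 9 were higher and Atp2a2 was lower, beside 78.2% called (42% higher and 36.2% lower). Of the 46 other coupling genes 41 were tested, with 28 higher and 8 lower in C2C12 than in MLg, and 26 higher and 9 lower than in EO771. The median log2 fold change against MLg was 8.09 over the 10 genes, 1.41 over the other coupling genes and -0.03 over all genes.

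**Figure D4:**
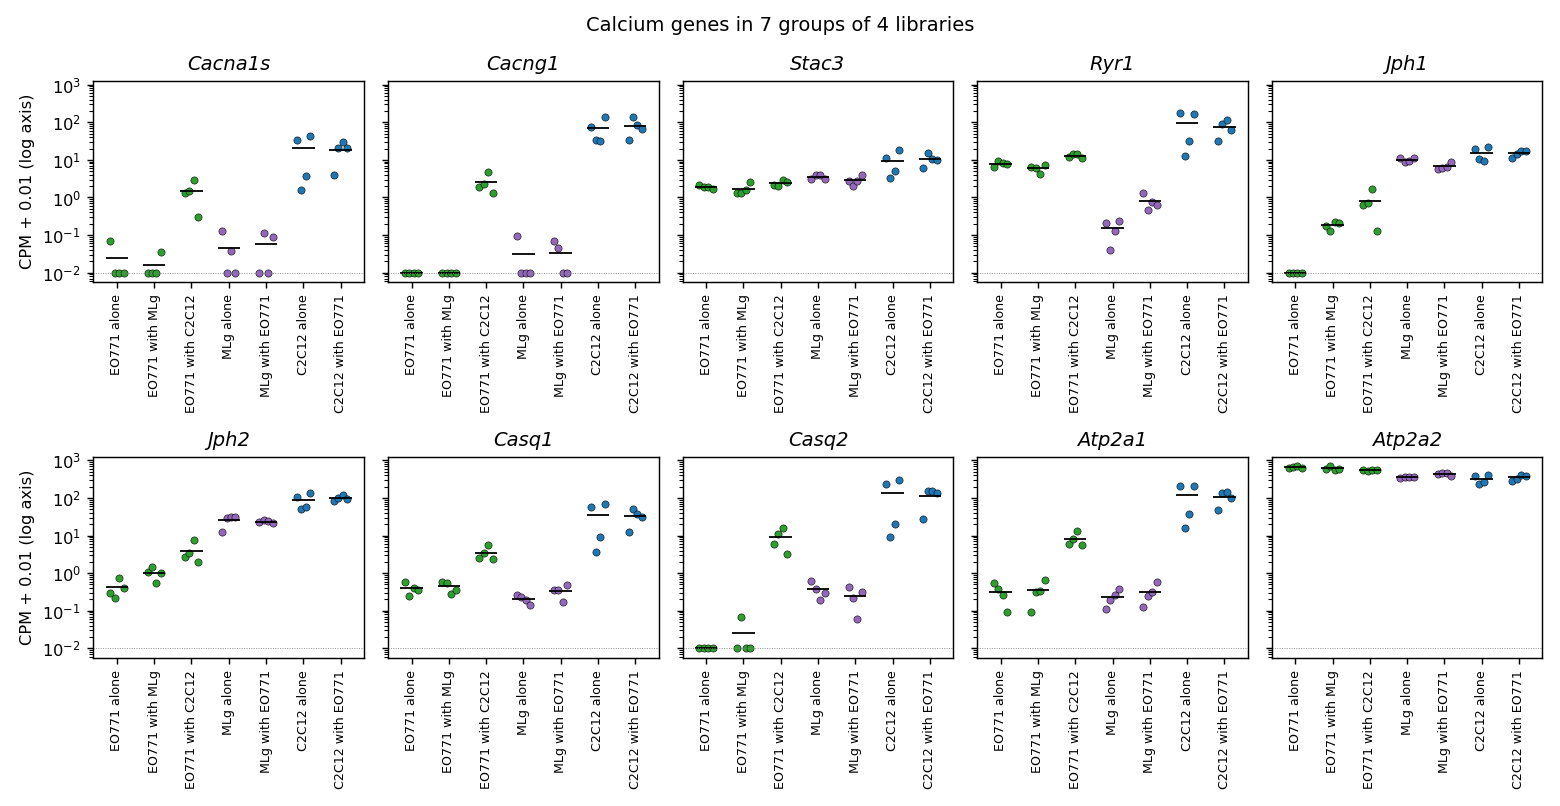
Level of each of the 10 genes in the 7 groups of 4 libraries, as CPM + 0.01 on a log axis, with 1 point per library and a line at the mean. The dotted line is a count of 0. Atp2a2 lies between 235 and 712 CPM in all groups, the other genes have their highest library in C2C12, and all but Atp2a2 and Stac3 are also higher in EO771 with C2C12 than in EO771 alone without overlap.

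Atp2a2 was high everywhere. It was at 349 to 371 CPM in MLg alone and at 607, 682, 705 and 638 CPM in EO771 alone R3-1, R3-2, R5-1 and R6-2, above all 8 C2C12 libraries. Its log2 difference of C2C12 against EO771 was -0.87 ± 0.14 (SE, adjusted p = 5.94e-05), and against MLg -0.01 ± 0.14 (adjusted p = 0.977). A further 3 genes were not limited to C2C12. Jph1 was at 11.4, 8.51, 9.48 and 11.1 CPM in MLg alone, overlapping C2C12 alone, and at 0 in all 4 libraries of EO771 alone, where C2C12 was at least 748-fold higher. Jph2 was at 12.3 CPM in MLg alone R3-2 and 29.4 to 31.1 CPM in the other 3 libraries, below all of C2C12. Stac3 was at 3.00 to 3.96 CPM in MLg alone and 1.68 to 2.20 CPM in EO771 alone. The call of Jph1 in C2C12 against MLg (log2 fold change 0.77 ± 0.26, adjusted p = 0.0261) ended, by adjusted p, without R2-1 (0.0772) or R5-1 (0.0782) of C2C12 alone and without R5-2 (0.078) or R6-1 (0.0721) of MLg alone. It also ended with library totals in place of TMM (0.0718), with the R number as a block (0.157) and with all 28 libraries in the same fit (0.0524).

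Ryr1 was the other exception. It was at 6.57, 9.05, 8.33 and 7.80 CPM in the 4 libraries of EO771 alone, near the 12.6 CPM of C2C12 alone R3-1, and at 0.0302 to 0.227 CPM in MLg alone. The 2 lines did not overlap, and Ryr1 was lower in MLg than in EO771 by the edgeR test (log2 fold change -5.78 ± 0.90, adjusted p = 4.52e-05). Casq1, Casq2, Atp2a1, Cacna1s and Cacng1 were each under 0.7 CPM in every library of both lines grown alone. Casq2 and Cacng1 were at 0 in all 4 libraries of EO771 alone. C2C12 alone was at least 6593-fold higher for Casq2 and at least 3380-fold higher for Cacng1, with the floor of 3 counts taken over the group. Between MLg and EO771 grown alone, 2 genes were higher in MLg (Jph1 and Jph2) and 2 lower (Atp2a2 and Ryr1), beside 77.6% of all genes called (40.8% higher and 36.8% lower). Stac3 was not called there by edgeR (0.85 ± 0.40, adjusted p = 0.0655) but was by DESeq2 (adjusted p = 0.031). It was also called by edgeR without the filter on low counts and with all 28 libraries in the same fit.

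The next comparison concerns the cancer cells taken from the shared culture with C2C12. Of the 9 genes tested in EO771 with C2C12 against EO771 alone, 7 rose and 1 fell, beside 33% of 15794 genes called (18.7% higher and 14.3% lower). Jph1 did not pass the filter on low counts. Casq2 went from 0 in all 4 libraries to 6.07, 11.1, 16.2 and 3.15 CPM in R5-1, R5-2, R6-1 and R3-1, at least 437-fold higher. Cacng1 went from 0 to 1.90, 2.21, 4.63 and 1.34 CPM, at least 121-fold higher, and Jph1 from 0 to 0.633, 0.724, 1.66 and 0.116 CPM, at least 37.5-fold higher. The co-cultured libraries did not overlap EO771 alone for any of these, and R6-1 was the highest for each.

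Atp2a1 went from 0.528, 0.359, 0.257 and 0.0842 CPM in EO771 alone to 5.86, 7.86, 13.3 and 5.47 CPM (log2 fold change 4.64 ± 0.48 SE, adjusted p = 1.12e-06). Casq1 went from 0.231 to 0.557 CPM to 2.39 to 5.53 CPM (3.09 ± 0.39, adjusted p = 9.2e-06). Jph2 went from 0.205 to 0.742 CPM to 1.92 to 7.46 CPM (3.15 ± 0.48, adjusted p = 6.1e-05). Cacna1s, with 2 counts over the 4 libraries of EO771 alone, reached 1.31, 1.52, 2.83 and 0.291 CPM (adjusted p = 3.36e-05). Ryr1 was at 12.1, 14.2, 14.1 and 11.0 CPM against 6.57 to 9.05 CPM alone, without overlap (0.62 ± 0.17, adjusted p = 0.00834); in a single fit with the other 2 lines the adjusted p of this call was 0.347. Stac3 overlapped and was not called, at 0.27 ± 0.26 (adjusted p = 0.455).

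Every one of 21 myotube markers tested rose too, and their sum went from 18.0 to 21.2 CPM in EO771 alone to 148 to 540.5 CPM in EO771 with C2C12. The level of each gene was therefore given as a share of its mean level in the C2C12 libraries of the same kind of culture. It was 3.10% ± 1.79 for Cacng1, 3.87% ± 2.50 for Jph2, 5.20% ± 4.26 for Jph1, 7.60% ± 3.36 for Atp2a1, 7.86% ± 4.94 for Casq2 and 8.05% ± 5.65 for Cacna1s (SD, n = 4). These are the 6 genes whose level in EO771 alone was under 1% of that in C2C12, with a median of 6.40%. The 15 myotube markers with the same property had a median of 10.6% and ranged from 5.36% to 12.2%. By library the median share of 21 markers was 6.78%, 9.50%, 18.5% and 4.71% in R5-1, R5-2, R6-1 and R3-1, in the same order as the levels of Casq2. Transcripts found in C2C12 and at most at 0.2 CPM in any library of EO771 alone were 356 genes, chosen without regard to muscle function. In the same library order they were at 0.559%, 0.767%, 1.31% and 1.19%. Here R3-1 was above R5-1 and R5-2, while Casq2 was lowest in R3-1. Each share was taken against the mean over the C2C12 libraries, and not against the library with the same label. In C2C12 with EO771 itself, Casq2 was at 28.2 CPM in R3-1, against 132 to 152 CPM in the others. The order of Casq2 levels across these cancer libraries therefore cannot be read against the order of these shares.

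**Figure D5:**
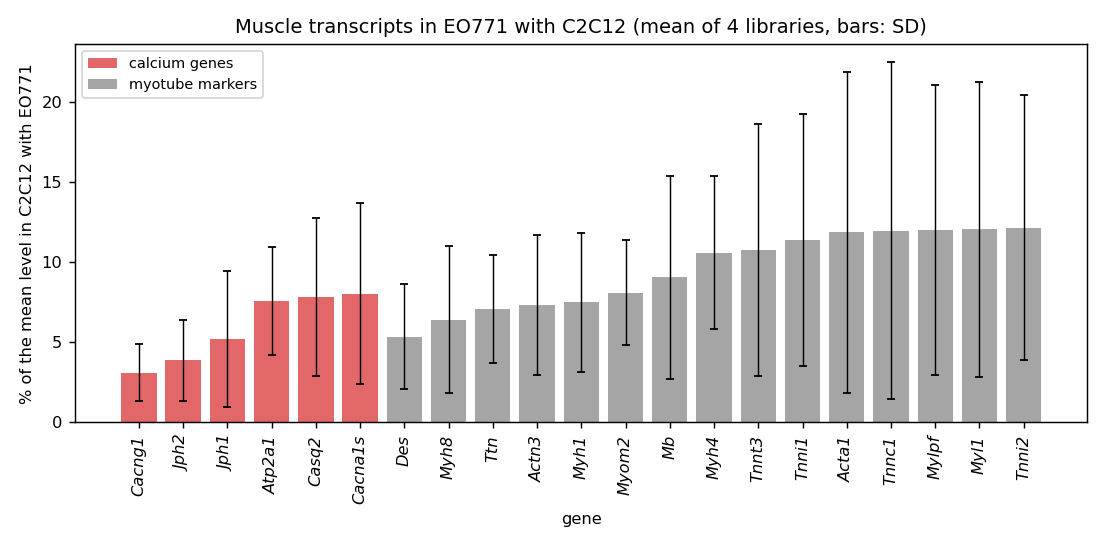
Level in EO771 with C2C12 as a percentage of the mean level in C2C12 with EO771, as bars for the mean of 4 libraries with SD lines, for the 6 calcium genes (red) and 15 myotube markers (grey) whose level in EO771 alone was under 1% of that in C2C12. The calcium genes lie between 3.10% and 8.05%, the markers between 5.36% and 12.2%.

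Subtracting C2C12 counts from these cancer libraries at the share of the myotube markers left 0 of 6 tested calcium genes higher by edgeR. Only 6 of the 9 genes still passed the filter on low counts. The calcium genes with little RNA in EO771 alone had shares of 3.10% to 8.05%, below the markers' median of 10.6%. The loss of their rise was thus set by the shares, and this subtraction is no test of it. Jph2, whose own share is below that of the markers, was then called lower. Subtracting them at the share of the 356 C2C12 transcripts, an alternative added after the values were seen, left 6 of 8 tested genes higher (Atp2a1, Cacng1, Casq1, Casq2, Jph2 and Ryr1), and Atp2a2 lower, beside 29.8% of 15673 genes called (16.3% higher and 13.5% lower). With that share the log2 fold change of Atp2a1 was 4.47 ± 0.50 (SE); for Casq2 and Cacng1, at 0 in EO771 alone, the call has no size beyond the limits above. The share of the 356 transcripts, 0.559% to 1.31% by library, is below the 3.10% to 8.05% of the calcium genes with little RNA in EO771 alone. What was left of their rise was thus set by the shares here too, and neither subtraction is a test of it. The call depends on which share is taken for C2C12 RNA in the cancer libraries. RNA from muscle cells and transcription in the cancer cells cannot be told apart in counts of mouse lines mapped together.

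Atp2a2 was the gene that fell. It was at 541, 535, 546 and 545 CPM in EO771 with C2C12, below all 4 libraries of EO771 alone (607 to 705 CPM), a log2 fold change of -0.35 ± 0.11 (SE, adjusted p = 0.0151). C2C12 itself was lower for this gene, at 351 ± 60.5 CPM in the shared culture. The call ended without EO771 alone R5-1 (-0.32, adjusted p = 0.0527), with all 28 libraries in the same fit (-0.30, adjusted p = 0.107) and once C2C12 counts were subtracted at the myotube marker share (-0.26, adjusted p = 0.0826). With MLg in place of C2C12, EO771 was at 603, 712, 537 and 591 CPM, overlapping EO771 alone (-0.09 ± 0.11, adjusted p = 0.706). The comparison with EO771 with MLg uses the same EO771 alone libraries.

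None of the 9 genes tested in EO771 with MLg against EO771 alone was called by edgeR, beside 9.59% of 15794 genes (5.99% higher and 3.6% lower), with 2 at an unadjusted p under 0.05 and 2 called by DESeq2 (Jph1 and Jph2). Jph2, expressed in MLg, was at 1.10, 1.45, 0.545 and 1.03 CPM in R6-1, R5-1, R6-2 and R7-1 against 0.205 to 0.742 CPM alone (1.35 ± 0.48, adjusted p = 0.0911). Jph1, which did not pass the filter, was at 0.12 to 0.218 CPM against 0 in all 4 libraries of EO771 alone. Both are genes called higher in MLg alone than in EO771 alone. Transcripts found in MLg and at most at 0.2 CPM in any library of EO771 alone (329 genes) were at 1.03% to 1.92% of their level in MLg with EO771 in these libraries. Their part in the values of Jph1 and Jph2 was not tested.

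In the fibroblasts of the shared culture 8 genes were tested, of which Ryr1 was called higher and Jph1 lower in MLg with EO771 than in MLg alone, beside 14.7% of 16823 genes called (9.89% higher and 4.81% lower). Ryr1 was at 0.201, 0.0302, 0.115 and 0.227 CPM in MLg alone R3-2, R5-2, R6-1 and R6-2. It was at 1.30, 0.452, 0.754 and 0.623 CPM in MLg with EO771 R5-1, R6-1, R6-2 and R7-1, without overlap (2.44 ± 0.53, adjusted p = 0.00922). Transcripts of EO771 that MLg lacks (61 genes) were found at a share of their level in EO771 with MLg in these libraries: 12.7% in R5-1, 5.90% in R6-1, 5.99% in R6-2 and 8.68% in R7-1. R5-1 was highest and R6-1 lowest in both this share and Ryr1, while R6-2 and R7-1 had the opposite order. With EO771 counts subtracted at that share, the Ryr1 value was 1.09 ± 0.71 (adjusted p = 0.433), an alternative added after the values were seen. With the other lines in the same fit, the adjusted p of Ryr1 was 0.0721.

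Jph1 went from 11.4, 8.51, 9.48 and 11.1 CPM in MLg alone to 5.74, 6.12, 6.53 and 8.78 CPM with EO771, with overlap in 1 library (-0.55 ± 0.16, adjusted p = 0.0345). Leaving out MLg alone R3-2, R6-1 or R6-2, or MLg with EO771 R5-1, R6-1 or R6-2 ended the call, with adjusted p values of 0.0591 to 0.104. The value with EO771 counts subtracted was -0.41 (adjusted p = 0.169). Atp2a2 was at 426, 451, 455 and 377 CPM against 349 to 371 CPM alone, without overlap, and was not called (0.26 ± 0.08, adjusted p = 0.0506). DESeq2 called it (adjusted p = 0.0353), and so did the fit with the R number as a block (adjusted p = 0.0142). EO771 has more of this RNA than MLg. Jph2 was not called over the 8 libraries (-0.12 ± 0.22, adjusted p = 0.779); without MLg alone R3-2 it was at -0.34 (adjusted p = 0.0307).

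The response of C2C12 to EO771 was tested against that of MLg in 1 fit of the 16 libraries of these 2 lines. None of the 10 genes was called, beside 1.84% of 18647 genes (0.778% higher and 1.06% lower), with 1 at an unadjusted p under 0.05 (Ryr1) and 0 called by DESeq2. Ryr1 was at -2.77 ± 1.17 (SE, edgeR adjusted p = 0.318). Atp2a2, at high counts in both lines, gave the narrowest estimate, -0.19 ± 0.20 (SE, adjusted p = 0.766), followed by Jph1 at 0.48 ± 0.32 (adjusted p = 0.573) and Jph2 at 0.30 ± 0.38 (adjusted p = 0.81). For the others, Ryr1 included, the SE ran from 0.54 for Stac3 to 2.38 for Cacng1, so large differences could go uncalled. Of these, Casq1, Casq2, Atp2a1, Cacna1s and Cacng1 were at most at 0.603 CPM in any library of MLg alone.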

How the data were processed

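Polyadenylated RNA was sequenced from 28 libraries made with a TruSeq stranded mRNA kit, per the labels' protocols. The deposited values are whole-number counts per gene, 1 table per library, which the authors did not normalize as far as the files show. Tools named in the submitters' processing notes are STAR 2.7.10a, Subread 2.0.1 with featureCounts, fastp and DESeq2; the genome build and strand setting were not given in the sources used here. Each of the 55536 identifiers was found in GENCODE M21 (GRCm38), which gave symbols and exon lengths. Promoters came from RefSeq (GRCm38.p6).

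CPM used library totals. Counts were tested with edgeR 4.0.16 (R 4.3.3), quasi-likelihood F test, TMM normalization, filterByExpr at its minimum count of 10 and minimum total of 15, and p-values adjusted by Benjamini-Hochberg over the tested genes, with a threshold of 0.05. Fits held the libraries of 1 line, of the 3 lines alone, or of C2C12 and MLg. DESeq2 1.42.0 and other settings are alternatives. Groups followed the labels; the file names of 1 pair of EO771 with C2C12 libraries carry each other's name, and the recorded assignment was kept. Replicate counts differed by more than sampling noise in every group, where chi-square per degree of freedom was at least 14.7. Libraries of EO771 alone and with C2C12 that share an R number deviated together weakly. The r was 0.168, 0.153 and 0.124 for R3, R5 and R6. Those of C2C12 alone and with EO771 did so more strongly (r = 0.675 and 0.710 for R3 and R5). The main fits held no term for the R number. With it as a block, none of the calls of the 10 genes changed in these comparisons. The edgeR step was tested on simulated data.

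The 10 genes and all marker lists were chosen with earlier results of these data known. The named genes are the 10 in every comparison where they were tested and, of the other coupling genes, the largest called changes at 1 CPM or more and the 5 highest levels in C2C12; further names were chosen after their values were seen. Of the 47 coupling genes listed, 46 matched an identifier.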

Additional observations from a re-analysis of the deposited data

Results flagged for a closer look

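The values of 2 libraries lay far from the other 3 libraries of their group by Dixon's ratio, out of 44 groups of 4 tested, and chance gives about 1 in 20 groups. Casq2 in C2C12 with EO771 R3-1 was at 28.2 CPM, against 132 to 152 CPM in the other 3, and the ratio of gap to range was 0.841. Jph2 in MLg alone R3-2 was at 12.3 CPM, against 29.4 to 31.1 CPM in the other 3, with a ratio of 0.912. Both libraries carry R number 3.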

How the results depend on the processing

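In C2C12 with EO771 against alone, no member was called under any setting except Casq2 lower without the R3 libraries (1 called lower). These values lie near 0 and changed sign between settings; the cause was not tested. Leaving out 1 library at a time gave -0.46 to 0.45 for Casq1, -0.66 to 0.38 for Casq2, -0.55 to 0.24 for Atp2a1, -0.049 to 0.18 for Atp2a2, -0.76 to 0.089 for Ryr1, -0.55 to 0.46 for Cacna1s, -0.21 to 0.72 for Cacng1, -0.26 to 0.11 for Jph1, -0.0087 to 0.43 for Jph2 and -0.16 to 0.61 for Stac3. With the replicate block, signs turned for Casq1 (0.13), Atp2a1 (0.10), Atp2a2 (-0.035), Cacng1 (-0.15) and Stac3 (-0.030). Without the R3 libraries they turned for Atp2a2 (-0.14), Cacng1 (-0.19), Jph2 (-0.22) and Stac3 (-0.32), and with R3 as a term for Atp2a2 (-0.040), Cacng1 (-0.11) and Stac3 (-0.046). Scaled to myotube markers they turned for Casq1 (0.26), Casq2 (0.24), Atp2a1 (0.10), Cacna1s (0.24), Atp2a2 (-0.56), Cacng1 (-0.26), Jph2 (-0.24) and Stac3 (-0.091). The number of genes called was 445, against 1176 in a fit of all 28 libraries, 816 by DESeq2 and 102 scaled to the markers.

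In EO771 with C2C12, subtraction at the myotube marker share left 0 calcium genes higher and turned Casq1 (-0.12), Atp2a1 (-1.38), Ryr1 (-0.45), Jph2 (-6.88) and Stac3 (-0.37); for Jph2 that share exceeds its own, so little was left. The 1 lower call, Atp2a2, became 0 in the fit of all 28 libraries, and 0 to 1 leaving out 1 library; with that subtraction it was Jph2 and not Atp2a2. In EO771 with MLg the number called higher was 0, but 2 without the filter, 1 in the fit of all 28 libraries, 2 by DESeq2 and 1 to 2 leaving out 1 library; Jph1, which then passes the filter, and Jph2 account for them.

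In MLg with EO771 the 1 higher call became 2 with the replicate block or DESeq2, 0 in the fit of all 28 libraries or with EO771 counts subtracted, and 1 to 2 leaving out 1 library. The 1 lower call became 0 in the fit of all 28 libraries or with subtraction, and 0 to 1 leaving out 1 library. Genes called there were 2472, against 778 with subtraction, which turned Jph2 to 0.026, and 1569 to 2994 leaving out 1 library (fewest without MLg alone R6-2, and 1627 without R6-1). For the difference of responses 343 genes were called, against 549 in the fit of all 28 libraries and 726 by DESeq2. Atp2a2 in C2C12 against MLg alone turned to 0.0031 without the filter and ranged from -0.16 to 0.062 leaving out 1 library. Of MLg against EO771 alone, 2 genes were higher, and 4 by DESeq2. Stac3 was also called higher there without the filter and in the fit of all 28 libraries.

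Pairing by R number was checked by correlating deviations from group means: r was 0.675 and 0.710 for R3 and R5 in C2C12, 0.331 and 0.171 for R5 and R6 in EO771 alone and with MLg, and -0.325 and 0.237 for R5 and R6 in MLg. What the shared number marks is not given, and the main fits left it out. The replicate block changed only the calls of Atp2a2 in MLg and of Jph1 in C2C12 against MLg (0.60, edgeR adjusted p = 0.157). Halving the even counts changed no call of the 10 genes. The depth of 27.6 to 96.5 M counts limits statements below about 0.1 CPM in 1 library. In the 5 libraries with only even counts this limit may be higher, which was not tested.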
